A study of Mus musculus with 8 samples.

Results

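Cxcl13, Cxcl9, Cxcl10, Cxcl16 and Cxcl2, 5 of the 27998 genes in the deposited tables, are ligands of the CXC chemokine family. They were selected on their measured levels in these libraries, namely the summed unique molecular identifiers (UMIs, each a tag for one captured RNA molecule) and the share of cells with a UMI. Their levels and the differences between libraries are therefore a description, with no test. They were followed in 8 single-cell libraries of microglia, the tissue macrophages of brain and cord, from lumbar spinal cord.

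All mice were C57BL/6 and carried Cx3cr1-yfp-creER/+, a yellow fluorescent protein and a tamoxifen-inducible Cre at 1 copy of Cx3cr1, the fractalkine receptor gene, so control animals also had that altered allele. Control libraries held this allele alone. A20 cKO libraries came from Cx3cr1-yfp-creER/+; Tnfaip3 fl/fl animals, in which Cre removes floxed Tnfaip3, the gene of the ubiquitin-editing NF-kB inhibitor A20, in Cx3cr1-expressing cells, which besides microglia include border macrophages and monocytes. Both genotypes were sampled naive and on days 1, 2 and 3 after transection of the sciatic nerves. The animals were young adults, and the study's methods place its experiments a fixed time after a first tamoxifen dose without naming genotypes. Lumbar cords of several animals were pooled for every library, which leaves the 8 groups without replicates. Ranges in parentheses are 95% intervals for counting error only, and do not cover variation between animals or preparations.

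Chemokines are small secreted proteins that guide leukocytes through G protein-coupled receptors, and the CXC ligands are named for a cysteine pair separated by one residue. CXCL13 draws B cells and follicular helper T cells through CXCR5, CXCL9 and CXCL10 are interferon-inducible ligands of CXCR3 on activated T cells and NK cells, and CXCL2 draws neutrophils through CXCR2. CXCL16 is made as a transmembrane protein, is released by the proteases ADAM10 and ADAM17, and binds CXCR6. Several of these genes are known targets of NF-kB, whose activation A20 restrains.

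On GRCm38, Cxcl2 (chr5:90903871-90905938, + strand), Cxcl9 (chr5:92321347-92328079, − strand), Cxcl10 (chr5:92346638-92348889, − strand) and Cxcl13 (chr5:95956951-95961068, + strand) lie on chromosome 5. The starts of Cxcl9 and Cxcl10 are 20.8 kb apart, and that of Cxcl13 is 3608 kb from Cxcl10. Cxcl16 (chr11:70453983-70459984, − strand) lies alone on chromosome 11. All 5 are protein-coding genes in the annotation GENCODE M21. The 250 bases before the RefSeq start (GRCm38.p6) were read for Cxcl13 (chr5:95956689-95956938, + strand), Cxcl9 (chr5:92328080-92328329, − strand), Cxcl10 (chr5:92348890-92349139, − strand) and Cxcl2 (chr5:90903649-90903898, + strand). They are shown because cells with Cxcl10 and cells with Cxcl13 differ below in their interferon and NF-kB transcripts, with Cxcl9 and Cxcl2 for comparison. Each is written 5′ to 3′ on the strand of its gene, with letters that match an NF-kB motif or an interferon-stimulated response element (ISRE) in capitals.
Cxcl13: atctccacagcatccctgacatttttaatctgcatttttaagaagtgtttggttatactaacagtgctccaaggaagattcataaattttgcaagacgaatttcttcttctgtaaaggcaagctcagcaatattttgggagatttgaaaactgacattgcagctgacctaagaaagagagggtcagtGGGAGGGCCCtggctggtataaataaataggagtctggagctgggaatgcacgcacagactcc
Cxcl9: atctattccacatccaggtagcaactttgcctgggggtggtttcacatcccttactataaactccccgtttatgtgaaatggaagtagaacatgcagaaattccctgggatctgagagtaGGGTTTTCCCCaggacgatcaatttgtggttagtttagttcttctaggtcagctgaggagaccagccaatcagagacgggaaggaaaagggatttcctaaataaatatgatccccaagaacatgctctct
Cxcl10: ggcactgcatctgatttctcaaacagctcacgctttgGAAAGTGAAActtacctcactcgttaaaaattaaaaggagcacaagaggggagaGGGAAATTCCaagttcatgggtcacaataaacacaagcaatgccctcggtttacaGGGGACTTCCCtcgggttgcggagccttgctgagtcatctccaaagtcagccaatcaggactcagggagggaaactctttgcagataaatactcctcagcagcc
Cxcl2: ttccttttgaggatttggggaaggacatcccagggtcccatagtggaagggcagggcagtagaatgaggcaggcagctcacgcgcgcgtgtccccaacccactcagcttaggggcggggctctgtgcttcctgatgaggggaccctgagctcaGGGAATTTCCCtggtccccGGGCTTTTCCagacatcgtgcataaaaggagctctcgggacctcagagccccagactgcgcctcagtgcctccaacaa
The NF-kB letters GGGNNNNNCC, sought on both strands, were found in 4 of these 4 promoters, but 45.8% of all 32851 promoters of the same length held them. Cxcl13 had 1 match, Cxcl9 had 2 that overlap, and Cxcl10 and Cxcl2 had 3 each, of which 2 overlap. The ISRE letters GAAANNGAAA were found in Cxcl10 alone of the 4, and in 2.98% of all promoters. The AP-1 letters TGANTCA were in Cxcl10 alone as well (6.75% of all promoters), and the interferon-gamma activated site TTCNNNGAA (7.02%) was in 0 of the 4. A match describes letters in this window and is not a measured binding site.

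The deposited cells were kept at 1000 or more UMIs, 500 or more genes and at most 10% mitochondrial UMIs, which left 558 to 3585 cells and 1620481 to 15817426 UMIs a library. A set of 5 libraries, control day 3 with all 4 of A20 cKO (below, the linked libraries), shared more cell barcodes with one another than with the rest: 256 over their 10 pairs, against 98 over the 15 pairs that cross and 27 over the 3 pairs of the remaining controls. Per 1000000 possible pairs of barcodes, linked pairs shared 5.41 to 67.6, crossing pairs 0.797 to 8.83 and the remaining controls 1.48 to 2.29. The linked and crossing ranges overlap, so the split is not clean for every pair. Only A20 cKO day 3 against control day 3 compares the genotypes within the linked libraries. In every other comparison of genotypes, and in control day 3 against control naive, the group cannot be told apart from this split. Tnfaip3 itself ranged from 6.83 to 25.3 CPM (counts per 1000000 UMIs of the library) over the control and from 42.3 to 67.7 CPM over the A20 cKO libraries. Because 3′ tags can lie outside the deleted stretch, this does not check the deletion. The 8 microglia markers summed to 17970 to 24672 CPM in control and to 11892 to 18936 CPM in A20 cKO libraries. Monocyte markers (2.99 to 32.4 against 37.0 to 98.9 CPM), border macrophage markers (0.711 to 4.12 against 5.93 to 12.6 CPM), oligodendrocyte markers (60.1 to 149 against 150 to 202 CPM) and astrocyte markers (105 to 258 against 295 to 389 CPM) were higher in A20 cKO. For each of these lists the highest control library was control day 3, a linked library. B cell markers were lower in A20 cKO (37.2 to 51.1 against 21.2 to 33.4 CPM). Ependymal and choroid plexus markers followed the split. They were at 0, 0.285 and 0.126 CPM in control naive, day 1 and day 2. Control day 3 had 231 CPM of them and the A20 cKO libraries 132 to 417 CPM. Their part in the chemokine levels was not tested. Directly, 34 kept cells had UMIs of at most 1 of the 8 microglia markers, all in linked libraries, and these cells held 1 of 10397 Cxcl13 UMIs, 1 of 10087 Cxcl16 UMIs, 1 of 33 Cxcl2 UMIs, 0 of 317 Cxcl9 UMIs and 13 of 7422 Cxcl10 UMIs, the 13 in 1 cell.

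Cxcl13, the B-cell attractant, was close to absent in control libraries and reached 316 to 871 CPM in the A20 cKO libraries. It had 0 UMIs in control naive, 2 in control day 1, 0 in control day 2 and 21 in control day 3, which is 2.88 CPM (1.78 to 4.41). It was at 536 CPM (521 to 551) in A20 cKO naive, 316 CPM (296 to 337) at day 1, 871 CPM (839 to 905) at day 2 and 785 CPM (751 to 821) at day 3. The groups of 4 libraries did not overlap, and the 4 A20 cKO values are each outside the intervals of the others. How many of all genes separate the groups in this way was not counted, here or for the genes below. The order of days 2 and 3 depends on the deepest 2% of cells, without which they were at 747 and 818 CPM, and as means over cells they were at 720.4 and 717 CPM. Within the linked libraries, A20 cKO day 3 was higher than control day 3 by 8.06 log2 (7.47 to 8.79). Across the split, Cxcl13 was at least 289.3-fold higher in naive A20 cKO than in naive control, at least 4595-fold higher at day 2, and 10.80 log2 (9.26 to 14.16) higher at day 1, on 2 control UMIs.

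The A20 cKO libraries after injury lay on both sides of A20 cKO naive in Cxcl13. Against A20 cKO naive, the log2 ratio of Cxcl13 was −0.76 (−0.86 to −0.66) at day 1, 0.70 (0.63 to 0.77) at day 2 and 0.55 (0.48 to 0.63) at day 3. These differences exceed counting error, but with 1 pool at each time the spread between pools is unknown.

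Cxcl10, the CXCR3 ligand induced by interferons and NF-kB, was the member with the widest range of CPM among the control libraries. It stood at 3.09 CPM (1.002 to 7.201) in control naive, 10.9 (9.23 to 12.8) at day 1, 14.4 (12.6 to 16.4) at day 2 and 153 CPM (144 to 162) at day 3. Against naive these were log2 ratios of 1.69 (0.56 to 3.46), 2.09 (0.98 to 3.86) and 5.50 (4.41 to 7.26). The naive value rests on 5 UMIs in 2 cells, and leaving out the deepest 2% of cells raised the day 1, 2 and 3 ratios to 3.499, 3.958 and 7.12, and the naive genotype ratio given next to 7.93.

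In A20 cKO libraries Cxcl10 was at 253 CPM (243 to 264) in naive animals, 353 (332 to 375) at day 1, 494 (469 to 520) at day 2 and 431 CPM (406 to 458) at day 3, so every A20 cKO library exceeded every control library. The genotype ratio was 6.22 log2 (5.13 to 7.98) in naive animals, 5.02 (4.77 to 5.27) at day 1 and 5.10 (4.90 to 5.31) at day 2, all across the split. Within the linked libraries at day 3 it was 1.49 log2 (1.37 to 1.62). Of the A20 cKO day 1 Cxcl10 UMIs, 253 of 1069 lay under barcodes also found in another library, and without such barcodes this level was 299.6 CPM.

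Cxcl9, the other CXCR3 ligand of the pair, was low throughout. Control naive had 1 UMI, control day 1 and day 2 had 0, and control day 3 had 3.98 CPM (2.67 to 5.72). A20 cKO libraries had 15.8 CPM (13.3 to 18.6) in naive animals, 8.59 (5.61 to 12.6) at day 1, 16.5 (12.2 to 21.7) at day 2 and 27.5 CPM (21.5 to 34.8) at day 3. The 2 sets of 4 did not overlap, yet the nearest libraries, control day 3 and A20 cKO day 1, had intervals that overlapped. The day 3 genotype ratio was 2.78 log2 (2.15 to 3.47). Across the split, Cxcl9 was at least 40.2-fold higher at day 1, on 26 A20 cKO UMIs, and at least 86.9-fold higher at day 2, on 50. At day 2, 1 cell held 28% of these UMIs. The naive ratio, also across the split, was 4.10 log2 (2.18 to 9.99) on 1 control UMI.

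Cxcl16, the membrane-bound ligand, was the member that control microglia carried in number. The control libraries held 75.9 CPM (63.1 to 90.6) in naive animals, 82.9 (78.2 to 87.8) at day 1, 96.2 (91.4 to 101) at day 2 and 92.5 CPM (85.6 to 99.8) at day 3. Control days 1, 2 and 3 lay 0.12, 0.34 and 0.28 log2 above control naive, with intervals from −0.14 to 0.41, 0.08 to 0.62 and 0.01 to 0.57.

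A20 cKO libraries held 286 CPM (275 to 298) of Cxcl16 in naive animals, 357 (336 to 379) at day 1, 524 (499 to 550) at day 2 and 542 CPM (514 to 572) at day 3. The last 2 did not differ beyond their intervals, while both exceeded day 1 and naive. The genotype ratio was 1.91 log2 (1.65 to 2.19) in naive animals, 2.11 (1.98 to 2.23) at day 1, 2.45 (2.34 to 2.55) at day 2 and 2.55 (2.42 to 2.69) at day 3. Of these ratios only that of day 3 lies within the linked libraries, so the split and the day cannot be told apart here.

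Cxcl2, the neutrophil attractant, was at the edge of detection. It had 0 UMIs in control naive, day 1 and day 2, 12 in control day 3 and 14, 3, 2 and 2 in A20 cKO naive and days 1 to 3. The day 3 genotype ratio was −0.80 log2 (−4.27 to 1.10), so neither direction was detectable. In control day 1, where 11 of 11 measured immediate-early genes were at least 1 log2 above control naive, 0 UMIs of Cxcl2 in 14058535 allow up to 0.213 CPM by the limit of 3 counts.

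**Figure D1:**
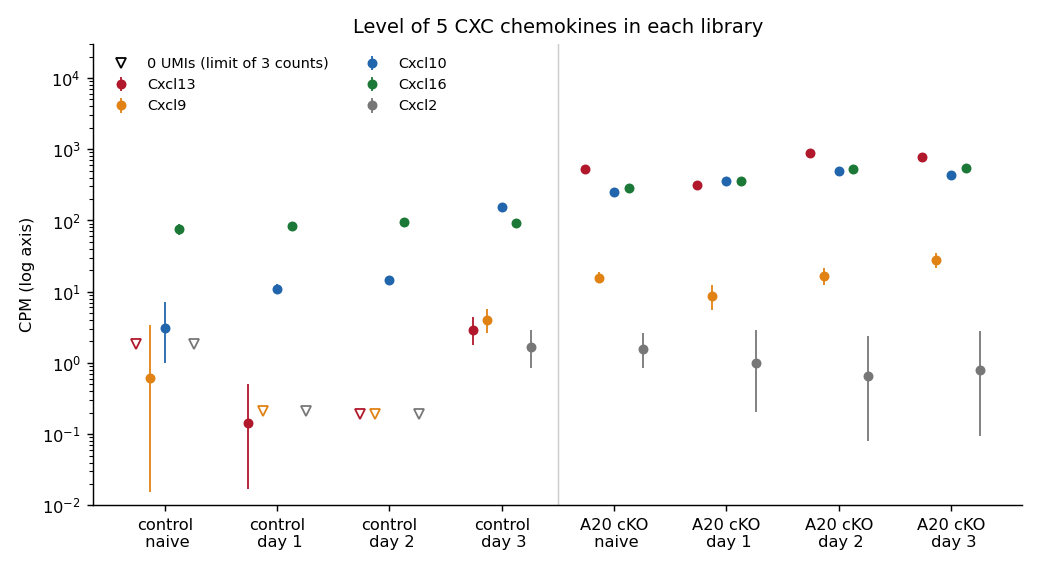
Level of each of the 5 chemokines in the 8 libraries, in CPM on a log axis; filled circles are UMI sums with 95% Poisson intervals and open triangles mark libraries with 0 UMIs at the limit of 3 counts. Cxcl13 runs from 0 to 2.88 CPM in control and from 316 to 871 CPM in A20 cKO libraries, whereas Cxcl16 is between 75.9 and 96.2 CPM in all control libraries.

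**Figure D2:**
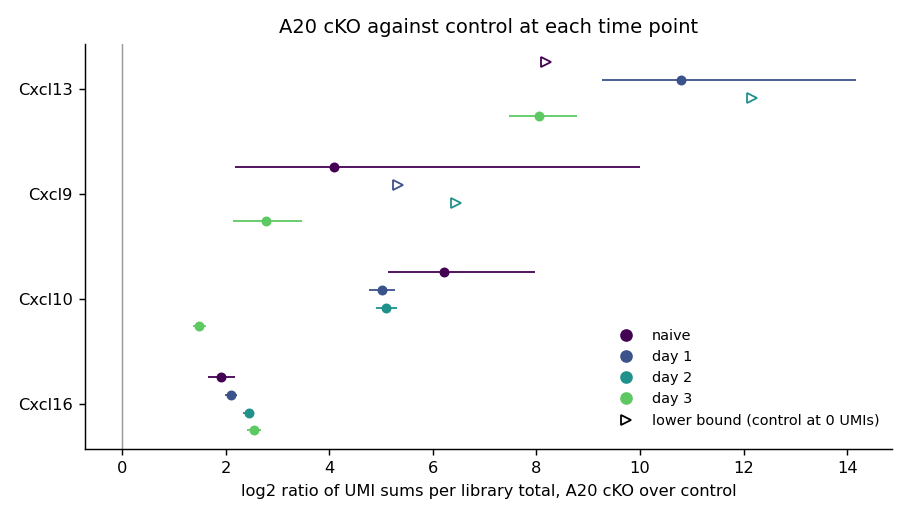
Log2 ratio of A20 cKO over control at each time point for the 4 members with more than 100 UMIs in all libraries together, with 95% intervals; open triangles are lower bounds where the control library had 0 UMIs. At day 3 the ratios are 8.06 for Cxcl13, 2.78 for Cxcl9, 1.49 for Cxcl10 and 2.55 for Cxcl16.

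The members' ratios were read against all genes with at least 100 UMIs in both libraries together. In A20 cKO day 3 against control day 3, 1.86% of 8488 genes were at least 1 log2 higher, and 3 members had enough UMIs to be counted, Cxcl13, Cxcl10 and Cxcl16, each past that fold. Cxcl9 fell 1 UMI short of the minimum with 99, and Cxcl2 had 14. The background was wider across the split: 7.43% of genes in naive animals, 15.5% at day 1 and 10.7% at day 2. There, 4, 3 and 3 members had enough UMIs and 4, 3 and 3 were past the fold. Because members were selected on these values, the counts describe the selection.

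In control animals 3.82% of genes were at least 1 log2 higher at day 1, 5.92% at day 2 and 8.76% at day 3 than in naive, and of the 2 members with enough UMIs Cxcl10 was past the fold each time and Cxcl16 was not. In A20 cKO animals 1.56%, 2.86% and 1.92% of genes were past it at days 1, 2 and 3, and 0 of 4 members with enough UMIs. The median gene shifted by −0.13 and −0.12 log2 in control day 1 and day 2 against naive, by 0.20 in the day 1 genotype comparison and by −0.12 in that of day 3. Relative to the median gene, Cxcl10 at day 2 and Cxcl16 at day 3 were 1.04 and 1.02 log2 above A20 cKO naive, each just past the fold.

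The pathway lists name genes of interferon and NF-kB responses. They were chosen with earlier results of these data known, so they are not independent of the values below. In A20 cKO day 3 against control day 3, 11 of 17 measured NF-kB targets were at least 1 log2 higher, among them Ccl2, Ccl3, Ccl4, Ccl5, Tnf and Il12b, with a list median of 1.30 against −0.12 for all genes. Of 17 interferon response genes, 4 were past that fold (Irf7, Usp18, Bst2 and Ifi44), with a median of 0.36. Thus at day 3 more NF-kB targets than interferon genes differed beside the members.

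Control day 3 against control naive, the comparison in which Cxcl10 differed by 5.50 log2, had the opposite makeup. There 15 of 16 measured interferon genes were at least 1 log2 higher, with a median of 2.89, and 3 of 14 NF-kB targets, Tnf, Ccl2 and Ccl5, with a median of −0.28. In naive A20 cKO against naive control, 15 of 17 interferon genes and 8 of 18 NF-kB targets were past the fold. In the day 1 genotype comparison 15 of 15 interferon genes were past it, with a median of 3.96. Of 18 NF-kB targets there, 2 were past it and 4 were at least 1 log2 lower (Nfkbiz, Tnf, Il1a and Ccl3), with a median of −0.11. At day 2 the genotypes differed past the fold in 16 of 16 interferon genes and 9 of 17 NF-kB targets. Of the noncanonical NF-kB list, 4 of 13 genes, Traf3, Nfkb2, Relb and Cd40, were past it at day 3, with a median of 0.44.

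Within the CXC family the members held almost all transcripts. Together they made up 97.7% to 99.8% of the UMIs of all listed CXC ligands in each library. Cxcl16 took 93.2%, 87.1% and 84.9% of ligand UMIs in control naive, day 1 and day 2, while Cxcl10 took 59.1% in control day 3. In A20 cKO libraries Cxcl13 had the largest share in naive animals and days 2 and 3, at 48.9%, 45.6% and 43.8%, and 30.4% at day 1. The other 9 listed ligands with a symbol in the tables stayed under 5 CPM in every library, and 3 of them had 0 UMIs. Of 10 listed receptors, 9 stayed under 5 CPM in every library, among them Cxcr3, Cxcr5 and Cxcr6, which bind the members. Cxcr2, the receptor of CXCL2, was highest in control naive at 11.7 CPM. The proteases of CXCL16 were present, with Adam10 between 122 and 357 CPM and Adam17 between 63.5 and 124 CPM.

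The members differed in how many cells carried them. Depth differed between libraries, so shares are of cells thinned at random to 2000 UMIs (13691 cells), with the share of all kept cells in brackets. Cxcl16 was found in 14.3% [16.7%], 15.2% [28.2%], 16.6% [32.3%] and 15.1% [24.1%] of control cells at naive and days 1, 2 and 3. In A20 cKO it was found in 32.7% [41.0%], 38.0% [48.6%], 55.0% [75.7%] and 58.7% [78.0%]. The thinned control shares did not differ beyond their intervals, which span 11.4% to 17.9%, while every A20 cKO share lay above them.

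Cxcl13 was found in 0, 0 and 0 thinned cells of control naive, day 1 and day 2 (limits of 0.598%, 0.0930% and 0.0862% of cells with a UMI) and in 0.426% [0.661%] of control day 3. In A20 cKO it was in 13.1% [16.5%], 10.2% [12.3%], 24.1% [35.8%] and 18.8% [27.1%] of cells. Cxcl10 was in 0.199% [0.352%], 1.71% [3.01%], 1.81% [3.49%] and 7.99% [10.1%] of control and 9.99% [11.98%], 12.4% [17.5%], 19.97% [30.4%] and 17.8% [24.4%] of A20 cKO cells. The order of the libraries by share was that by CPM for both genes.

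Cxcl9 was in at most 0.266% [0.378%] of control and 0.799% to 3.35% [1.47% to 4.84%] of A20 cKO cells, and Cxcl2 in at most 0.266% [0.339%] of any library. As background, the 34 cells with at most 1 microglia marker (median 1381.5 UMIs, against 3146 for the other linked cells) had 1 cell each, or 2.94% (0.0744 to 15.3), with Cxcl13, Cxcl10, Cxcl16 and Cxcl2, and 0 with Cxcl9, which allows up to 8.82%. With at most 1 positive cell per gene, this background cannot set a cut-off, and its interval reaches 15.3%. All 34 cells were in linked libraries, so it was not measured in the other control libraries. The background rests on few cells that are shallower than those of the shares above. The part of free RNA was not tested for any share, including the low shares of Cxcl9 and Cxcl2 and those of Cxcl13 and Cxcl10 in control libraries.

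Cxcl13 and Cxcl10 sat in few cells with many molecules, and Cxcl16 in many cells with few. Cxcl13-positive cells of A20 cKO libraries held 9.91, 8.78, 11.1 and 13.2 UMIs on average, with medians of 1 or 2 and a highest cell of 232. In A20 cKO naive, 25 of 2922 cells (0.856%) held at least as many Cxcl13 UMIs as all others together, and for Cxcl10 it was 29 cells (0.992%). For Cxcl16 that took 252 cells (8.62%), and positive cells held 2.13 to 3.17 UMIs in A20 cKO against 1.24 to 1.32 in control libraries. Cxcl10-positive cells held 1.53 and 1.82 UMIs in control days 1 and 2, 5.21 in control day 3 and 6.45 to 8.06 in A20 cKO. Cells with 10 or more Cxcl10 UMIs numbered 0, 0, 3 and 31 in the control and 67, 26, 38 and 35 in the A20 cKO libraries.

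**Figure D3:**
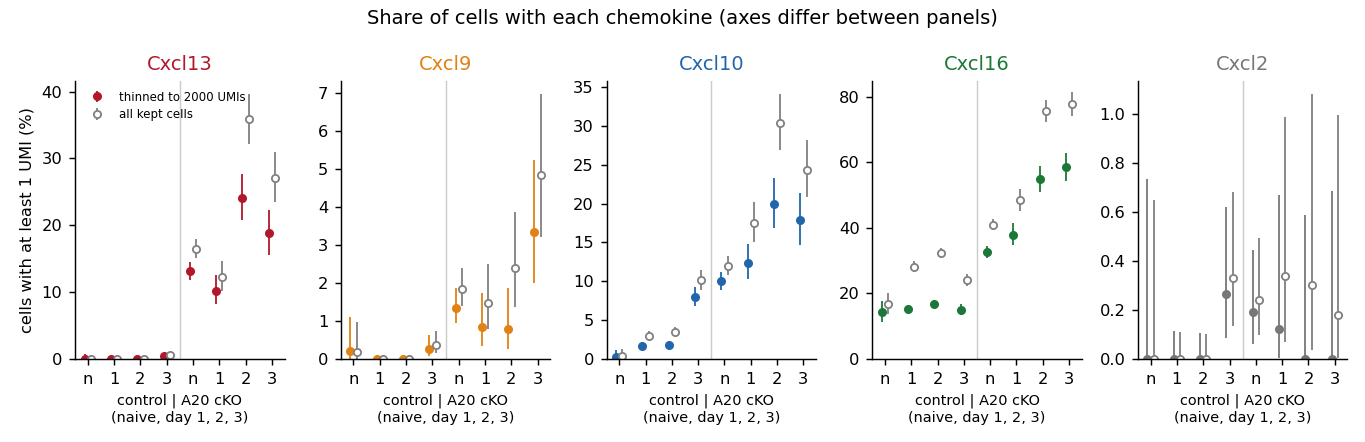
Share of cells with at least 1 UMI of each chemokine, in percent, by library (n is naive, 1 to 3 are days after injury); filled circles are cells thinned to 2000 UMIs, open circles all kept cells, with 95% Clopper-Pearson intervals. Cxcl16 stays between 14.3% and 16.6% of thinned control cells and reaches 58.7% in A20 cKO day 3, where Cxcl13 is at 18.8%.

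Of the Cxcl13 cells, 12.2% to 22.8% also had Cxcl10 in the 4 A20 cKO libraries. In thinned A20 cKO naive cells, 42 of 343 Cxcl13 cells also had Cxcl10 (12.2%, 8.97 to 16.2), against 9.65% of cells without Cxcl13. At days 1, 2 and 3 these shares were 20% against 11.5%, 21.2% against 19.6% and 22.8% against 16.7%. The base rate thus lay within the interval of the first share in each library except day 1, where the interval of 12.1% to 30.1% lay just above it. In naive animals the difference of 2.59 percentage points was 6.03 without thinning, 4.61 in a second draw and 5.15 without the deepest 2% of cells. At days 2 and 3 it was −0.56 and −1.93 points without those deepest cells, so its sign there rests on few cells. Barcodes that hold 2 cells were not removed, and their part in the overlaps was not tested.

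Cxcl16 was more frequent in cells that had either of the others. In A20 cKO naive it was in 49.3% (43.9 to 54.7) of Cxcl13 cells against 30.1% of cells without Cxcl13, and in 55.2% (48.9 to 61.3) of Cxcl10 cells against 30.2%. For Cxcl10 the same direction held at day 1 (58.3% against 35.1%), day 2 (71.2% against 50.9%), day 3 (69.8% against 56.3%) and in control day 3 (28.7% against 13.9%). For Cxcl13 it held at day 1 (63.5% against 35.0%) and day 3 (71.3% against 55.8%), but at day 2 the shares were 55.6% and 54.7%. That day 2 difference of 0.89 percentage points was not stable, being 8.51 without thinning, 6.40 in a second draw and 6.21 without the deepest 2% of cells. In naive animals the difference of 19.1 points became 12.7 in the second draw and 13.5 without the deepest cells. For Cxcl10 the A20 cKO day 2 difference of 20.3 points became 10.1 without thinning. It was 15.0 in the second draw and 12.8 without the deepest cells. In control day 1 and day 2, Cxcl10 cells had Cxcl16 in 16.4% against 15.2% and 23.8% against 16.5%.

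The cells richest in Cxcl13 had the most Cxcl10 in 3 of 4 A20 cKO libraries. In A20 cKO naive, Cxcl10 stood at 225 CPM in 2440 cells with no Cxcl13, 195 CPM in 393 cells with 1 to 9 UMIs and 924 CPM (833 to 1021) in 89 cells with 10 or more. At day 1 the values were 312, 550 and 757 CPM and at day 2 498, 413 and 720 CPM. At day 3 the order ended otherwise, at 429, 490 and 302 CPM (233 to 384). Cxcl16 was highest in the richest cells in all 4 libraries, at 856, 663, 746 and 828 CPM. These cells were also deeper, with medians of 4304 to 5192 UMIs against 2754.5 to 4148 in cells without Cxcl13.

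Cells with Cxcl10 and cells with Cxcl13 differed in the transcripts around the chemokine. In cells with Cxcl10 the summed interferon list was higher by 1.61 log2 (1.57 to 1.64) in A20 cKO naive, 1.60 at day 1, 0.64 at day 2 and 0.71 at day 3 than in cells without. The NF-kB target list was higher by 1.32 (1.29 to 1.36), 1.33, 0.69 and 0.93, and in control day 3 the lists differed by 1.40 and 1.42. In control day 1 the interferon list was 1.01 log2 higher and the NF-kB list 0.27, and in control day 2 they were 0.60 and 0.86 higher. Cxcl10 cells were thus richer in both lists in every library that had 20 or more of them.

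For Cxcl13 the same sums differed less. The interferon list was higher by 0.67 log2 (0.63 to 0.71), 0.48, 0.15 and 0.17 in A20 cKO naive and days 1, 2 and 3. The NF-kB list was 0.54 and 0.71 higher in naive and day 1, and −0.28 (−0.33 to −0.23) and −0.09 (−0.14 to −0.04) at days 2 and 3. Cells with Cxcl16 had more of both lists in all 4 A20 cKO libraries, by 0.32 to 1.31 for interferon and 0.42 to 1.31 for NF-kB genes. Microglia markers were slightly lower in cells with any of these 3 members in the linked libraries, by −0.33 to −0.05 log2. Cells with a member were deeper in every case (for Cxcl10 in A20 cKO naive, a median of 3541 against 2744 UMIs), and the part of depth was not tested.

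**Figure D4:**
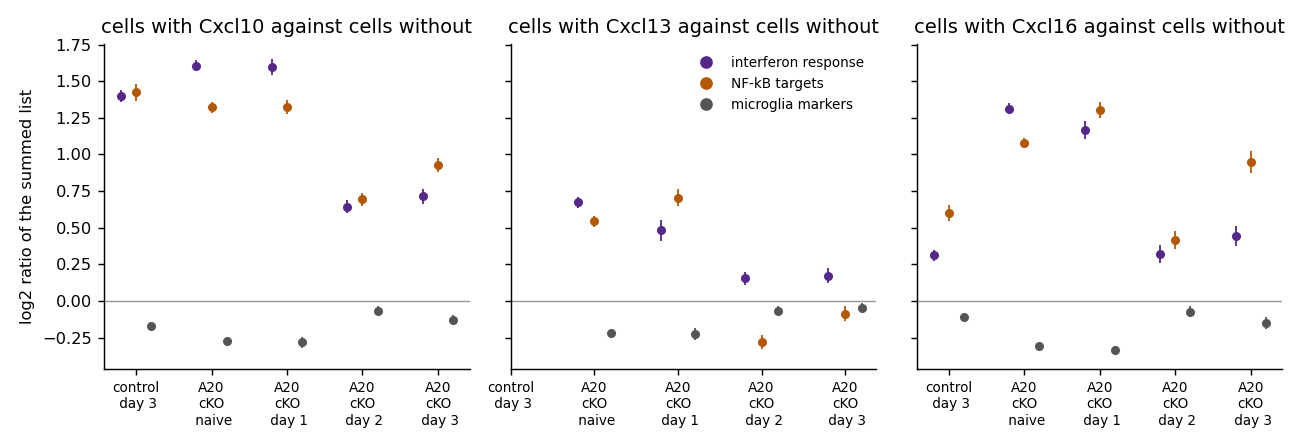
Log2 ratio of the summed interferon, NF-kB and microglia marker lists between cells with and without Cxcl10, Cxcl13 or Cxcl16 in the 5 linked libraries, with 95% intervals; control day 3 had under 20 Cxcl13 cells and no point. The NF-kB list is 0.69 to 1.42 higher in Cxcl10 cells but −0.28 and −0.09 in Cxcl13 cells of A20 cKO days 2 and 3.

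Ranked over 3325 genes by their lowest ratio in the 4 A20 cKO libraries, the genes most enriched in Cxcl10 cells were Il12b, a subunit of interleukins 12 and 23, the chemokines Ccl4 and Ccl7, the activation antigen Cd69, and Rsad2, the interferon-induced antiviral viperin. Their ratios were at least 2.72, 2.24, 2.07, 1.93 and 1.84 log2 in every A20 cKO library. Cxcl13 was 59th in that order and Cxcl16 67th. For Cxcl13 cells the leading genes were Ass1, the enzyme that makes argininosuccinate for arginine synthesis, the hexose transporter Slc2a6, Cd69, Ms4a4c and Il2rg, the shared cytokine receptor chain. Their lowest ratios were 0.49, 0.43, 0.39, 0.33 and 0.29 log2. Cxcl16 was 152nd and Cxcl10 454th, so Cxcl13 cells stood out less from their neighbours than Cxcl10 cells did. These rankings choose genes by the values given.

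Across libraries, the level of each member was set beside that of 6169 or 6170 genes by Pearson's r of log2(CPM + 1) over the 8 libraries, a description in which the points fall into few levels and share depth and the linked split. Closest to Cxcl13 were H2-Q6, a nonclassical MHC class I gene (r = 0.996), the adhesion molecule Vcam1 (0.995) and complement C3 (0.992). Within the 5 linked libraries these were 0.996, 0.989 and 0.989. H2-Q6 ran from 4.68 to 9.61 CPM over control and from 117 to 199.9 CPM over A20 cKO libraries.

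Closest to Cxcl16 were Bcl2a1a (0.990), C3 (0.989) and Il12b (0.988). C3 was thus near both Cxcl13 and Cxcl16, at 0 to 0.412 CPM in control and 27.6 to 59.0 CPM in A20 cKO libraries. Closest to Cxcl10 were Tgs1, an RNA cap methyltransferase (0.996), Fbxw17 (0.992) and Cd69 (0.991), which unlike C3 were raised in control day 3 too, with Cd69 at 26.6 CPM there against at most 1.49 CPM in the other control libraries. Closest to Cxcl9 were Acot9 (0.987), Rnf31, a subunit of the linear ubiquitin ligase (0.982), and H2-Q4 (0.980). For Cxcl2 they were Ubn1, Tceb3 and Ripk1, on 33 UMIs in all, too few to read. Many genes had nearly the same r, and ranking by Spearman's rho kept at most 1 of the 3 named genes for any member.

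Among chromosomal neighbours, 1 gene differed between the genotypes as Cxcl16 did. Zmynd15 (chr11:70459433-70466202, + strand), a zinc finger gene, starts 551 bases from the start of Cxcl16 on the opposite strand, and the 2 genes overlap by 552 bases at their 5′ ends. Zmynd15 stood at 8.02 CPM (4.27 to 13.7) in control naive, 4.13 (3.13 to 5.33) at day 1, 3.29 (2.46 to 4.31) at day 2 and 6.86 CPM (5.09 to 9.05) at day 3. In A20 cKO it stood at 17.6 (15.0 to 20.6), 25.1 (19.8 to 31.4), 23.1 (17.99 to 29.2) and 40.9 CPM (33.4 to 49.6). Every A20 cKO library was above every control library, as for Cxcl16, a separation that was not counted over all genes.

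The day 3 genotype ratio of Zmynd15 was 2.57 log2 (2.08 to 3.09) beside 2.55 for Cxcl16, and in naive animals it was 1.08 (0.32 to 2.07) beside 1.91. Over control days against naive, Zmynd15 did not follow Cxcl16, with log2 ratios of −1.001 (−1.84 to 0.03) at day 1, −1.33 (−2.18 to −0.29) at day 2 and −0.27 (−1.13 to 0.78) at day 3, beside 0.12, 0.34 and 0.28 for Cxcl16. It was the only one of 14 genes within 250 kb of Cxcl16 with at least 100 UMIs that was past 1 log2 at day 3, where 1.86% of all genes were. Arrb2, 27349 bases away, was at −0.03 log2 (−0.15 to 0.09) and Med11, 8065 bases away, at 0.29 (−0.23 to 0.77). Within A20 cKO naive, cells with Cxcl16 held 24.9 CPM (20.4 to 30.1) of Zmynd15 against 11.1 CPM (8.26 to 14.5) in cells without. In the other 7 libraries the intervals of the 2 kinds of cells overlapped. Whether reads of one gene were counted for the other was not tested.

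The neighbours of the chromosome 5 members did not do likewise. Around Cxcl9 and Cxcl10, Naaa was at −0.52 log2 (−0.73 to −0.32), Sdad1 at 0.13, Nup54 at −0.06 and Scarb2 at −0.07 in A20 cKO day 3 against control day 3, all under 1 log2. Cnot6l, the 1 neighbour of Cxcl13 with enough UMIs, was at −0.18 log2 (−0.46 to 0.08) and Mthfd2l beside Cxcl2 at −0.60 (−1.43 to 0.11).

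**Figure D5:**
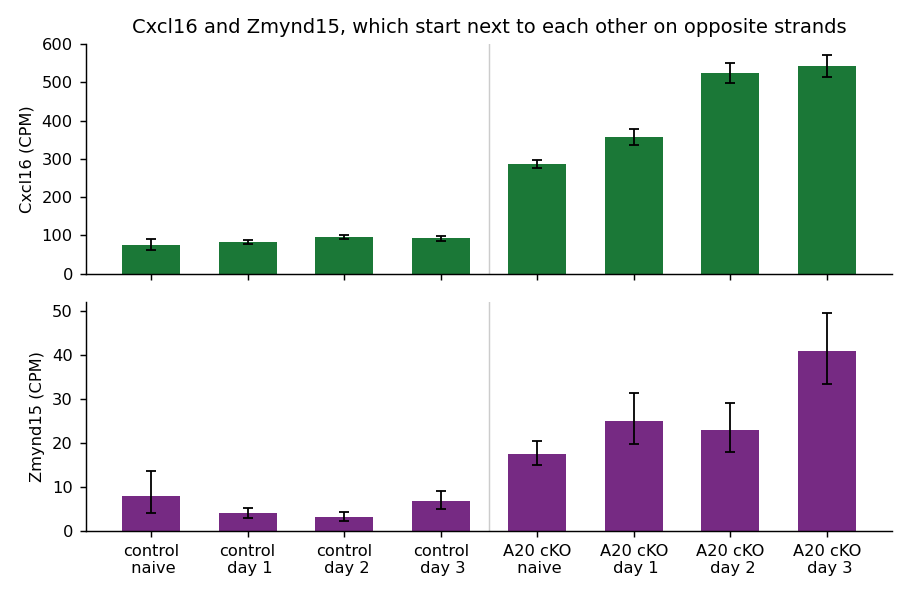
Level of Cxcl16 (upper panel) and of Zmynd15 (lower panel) in CPM in each of the 8 libraries, as bars from 0 with 95% Poisson intervals. Zmynd15 runs from 3.29 to 8.02 CPM in control and from 17.6 to 40.9 CPM in A20 cKO libraries, and Cxcl16 from 75.9 to 96.2 and from 286 to 542 CPM.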

How the data were processed

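Sorted YFP-positive cells were sequenced with 10x Genomics 3′ chemistry. The deposited matrices of the authors hold UMI counts for each gene in each barcode, with no normalization. The submitters' processing notes name Cell Ranger 2.1.1 and mm10, whereas the labels name a kit newer than that software, so the chemistry is uncertain. Of 14883 barcodes 14626 were kept (minimum 1000 UMIs and 500 genes, at most 10% mitochondrial UMIs), with no doublet caller run (the study's sort excluded doublets, but acts before droplets form). Counts were summed per library as CPM. Ratios had 0.5 UMIs added, and no fold was given where both sums were at most 3. A library with 0 UMIs was set to 3 counts. Intervals are exact Poisson, Clopper-Pearson and conditional binomial at 95%. No test was run, as no group had a second library and cells of a library do not count as replicates. Thinning drew 2000 UMIs without replacement. Of the gene identifiers, 98.7% matched GENCODE M21 (GRCm38). Members and lists were chosen with earlier results of these data known, and the set of 34 cells with few microglia markers after the values were seen. Besides members, lists and neighbours within 250 kb, genes were named as the 3 with the highest r per member (mean of at least 20 CPM) and the 5 with the highest lowest ratio in Cxcl13 or Cxcl10 cells (at least 50 CPM), leaving out mitochondrial, ribosomal-protein, Y-linked, Xist and predicted genes. Python 3.11.15, numpy 2.4.6 and scipy 1.17.1 were used, and scripts were tested on simulated data. Alternatives were other cell filters, shared barcodes, deep cells, scalings, thresholds and thinning.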

Additional observations from a re-analysis of the deposited data

How the results depend on the processing

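No paired analysis was possible because each group has 1 library, and for the same reason no replicate could be left out. No ratio whose interval excluded 0 turned its direction. The day 3 genotype ratio of Cxcl10 moved from 1.49 to 1.69 log2 without the deepest 2% of cells and to 1.68 as a mean over cells, while those of Cxcl13, Cxcl9, Cxcl16 and Cxcl2 kept within their intervals. The number of members past 1 log2 fell from 1 to 0 in control day 1 against naive with a minimum of 200 UMIs, by which Cxcl10 is no longer counted. It went from 0 to 1 at A20 cKO days 2 and 3 against naive relative to the median gene, and other counts were within 1.5 times. As a mean over cells, Cxcl10 and Cxcl16 were 1.03 to 1.22 log2 above A20 cKO naive at days 2 and 3, and 10 of 35 ratios in all moved beyond their interval. A threshold of 1.5 log2 lowered the share of genes past it in all 10 comparisons, for day 3 genotype from 1.86% to 0.907%. Without barcodes found in several libraries, Cxcl13 in A20 cKO day 1 moved to 345 CPM and Cxcl10 to 299.6 CPM, and the other 38 of 40 levels kept within their intervals. Shares depended on depth: without thinning 18 of 40 moved beyond their interval, and 24 of 40 at 1000 UMIs. The genes most like a member changed with the measure, since within the linked libraries at most 1 of 3 stayed among the first 3.

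Precision is limited by few molecules: Cxcl2 (33 UMIs) and Cxcl9 (317 UMIs) in all libraries, and control naive with 568 cells. With 1 pool per group, differences between pools, preparation and genotype or day cannot be told apart, and intervals do not cover them.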

Other observations

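Cells in division were counted as thinned cells holding 3 or more of the 18 core G2/M genes, such as Mki67, Top2a and Cdk1. In control day 2, 27.0% (16.6 to 39.7) of Cxcl10 cells met this against 14.2% (13.04 to 15.4) of cells without Cxcl10, and in control day 3 15.3% (9.98 to 22.1) against 8.04% (6.80 to 9.43). In A20 cKO naive it was 6.51% (3.84 to 10.2) against 2.21% (1.66 to 2.89). At A20 cKO days 1, 2 and 3 the shares were 2.91% against 2.89%, 11.2% against 12.2% and 10.4% against 5.66%, with overlapping intervals. For Cxcl16 the shares in A20 cKO naive were 4.22% (2.97 to 5.80) against 1.88% (1.29 to 2.62), and in the other 7 libraries the intervals overlapped. For cells with Cxcl13 they were 4.08% against 2.42%, 2.35% against 2.95%, 11.9% against 12% and 4.95% against 6.86% in the A20 cKO libraries, with overlapping intervals in all 4.

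Tnfaip3, which carries the floxed alleles, was higher in cells with Cxcl10 than without in all 4 A20 cKO libraries, by 1.45 log2 (1.14 to 1.75), 1.13 (0.58 to 1.66), 0.79 (0.32 to 1.25) and 1.11 (0.65 to 1.55), and in control day 3 by 0.82 (0.16 to 1.40). In cells with Cxcl13 the ratios were 0.45 (0.11 to 0.76), −0.07, −0.02 and 0.25, of which the last 3 had intervals that included 0. For cells with Cxcl16 they were 0.83 (0.54 to 1.12), 0.84 (0.29 to 1.42), 0.43 (−0.20 to 1.18) and 1.24 (0.50 to 2.19). Control day 3 had 0.70 (0.19 to 1.19) for Cxcl16, and the intervals of control naive, day 1 and day 2 included 0. Cells with a member were deeper, and the part of depth was not tested.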
